A study of Homo sapiens with 16 samples.

Results

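The SR splicing factors described here are SRSF1, SRSF2, SRSF3, SRSF4, SRSF5, SRSF6, SRSF7, SRSF9, SRSF10 and SRSF11, taken by gene symbol from 2 tables of normalised read counts. Each gene is represented by a single annotated mRNA, and all 10 were listed in both tables, among 10799 transcripts for MDA-LM2 and parental cells and 8980 for the knockdown and its control. All 10 also passed the filter on low values (a mean of at least 10 over the RNA libraries and over the footprint libraries of a table), so every member was tested in both comparisons. The members were named by family and not picked by a measured value, though earlier results of these data were known when they were chosen. The study asked how translation changes with metastatic capacity, and what the loss of HNRNPC does to it. Parental MDA-MB-231 cells, a human triple receptor negative breast cancer line of low metastatic capacity, were set against MDA-LM2, a derivative of that line selected for lung metastasis. MDA-MB-231 cells carrying a control guide RNA (sgControl) were set against MDA-MB-231 cells carrying a guide against HNRNPC (sgHNRNPC), both under CRISPR interference, in which a catalytically dead Cas9 fused to a KRAB repressor silences the gene that the guide names. Both guide lines therefore express the repressor, which the parental and MDA-LM2 cells of the other table are not labelled as carrying. The repressor and the guides were delivered by lentivirus. Cells that took up a guide were then selected with a drug, a step not described for the parental and MDA-LM2 cells. All 4 lines were grown in the same serum-containing medium. Each line gave 2 RNA libraries and 2 libraries of ribosome-protected footprints (RPF), so each of the 8 groups holds 2 replicates. The study calls them biological duplicates. The p-values by limma below rest on the spread between replicates, moderated over all tested genes. Those by logistic regression use no spread between replicates.

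SR proteins carry RNA recognition motifs at the amino-terminal end and a tail rich in arginine-serine dipeptides, the RS domain, that is phosphorylated by SRPK and CLK kinases. They bind short enhancer sequences in exons and recruit U1 and U2 small nuclear ribonucleoproteins to the neighbouring splice sites. Several of them also serve in mRNA export, in the choice of the polyadenylation site and in translation, and many hold their own level by splicing an exon with an early stop codon into their mRNA, which nonsense-mediated decay then removes. SRSF2, SRSF3 and SRSF7 have a single RNA recognition motif. SRSF1, SRSF4, SRSF5, SRSF6 and SRSF9 have a pair of motifs. SRSF10, which represses splicing once it is dephosphorylated, and SRSF11 stand further from the core family.

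The RS domain can be read in the coding sequences. Arginine and serine codons together made up 21.3% of the codons of SRSF9, the lowest of the members, and 45.7% of those of SRSF2, the highest. All 10 genes lay at or above the 98.3 percentile of listed transcripts on that measure. SRSF4 held 113 RS or SR pairs in its predicted protein and SRSF9 held 9. The following stretches of 10 codons (30 bases, GENCODE version 44 on hg38, given 5′ to 3′ on the coding strand, arginine codons in capitals) are those with the most arginine and serine codons in their gene, and they show how far the repeat extends in the gene that was called, in the gene with the highest share of arginine and serine codons and in the gene with the lowest.
SRSF1, chr17:58005514-58005543, minus strand: AGAtctCGAtctCGAagcCGTagtCGTagc
SRSF2, chr17:76736431-76736460, minus strand: AGGCGGCGTCGCCGCagcCGAtccCGGagt
SRSF9, chr12:120462079-120462108, minus strand: tcaCGGtctCGGtctgggtcaAGGggcCGT
All 10 codons of the windows in SRSF1 and SRSF2 encode arginine or serine, against 8 of 10 in SRSF9. The longest unbroken run of arginine and serine codons was 25 in SRSF6, 21 in SRSF2, 16 in SRSF1 and 5 in SRSF9.

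HNRNPC binds runs of U, and the study links such runs in 3′ UTRs to translation, so the 3′ UTRs of the SR genes were searched for a C followed by 6 U on the mRNA strand (CTTTTTT in the letters of the genome). Of the 10 genes, 7 held it, at 14 sites in all, and SRSF4, SRSF7 and SRSF9 held none. The share was 42.9% of 10544 listed transcripts with a 3′ UTR and 56.3% of the 7601 transcripts whose 3′ UTR is 500 bases or longer. The median 3′ UTR was 1891 bases in the SR genes and 1166 bases over all listed transcripts. SRSF10 had 4 sites in a 3′ UTR of 6795 bases, SRSF1 had 3 in 4487 bases, and SRSF2 and SRSF3 had 2 each. The sites of SRSF1 and the first site of SRSF3, the members with the lowest adjusted p-value in the knockdown and in MDA-LM2 cells, are printed with the run in capitals (30 bases, hg38, mRNA strand, in the annotated 3′ UTR).
SRSF1 site 1, chr17:58004044-58004073, minus strand: tccccagaaacCTTTTTTgattacagtatc
SRSF1 site 2, chr17:58004009-58004038, minus strand: ttttgcctcctCTTTTTTggttttgctggt
SRSF1 site 3, chr17:58002683-58002712, minus strand: aagtctcatttCTTTTTTgaaagggaagag
SRSF3 site 1, chr6:36602348-36602377, plus strand: actaagatttaCTTTTTTttccatagctgg
A match describes the letters and does not show that HNRNPC binds there.

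Read depth differed between the tables. The RNA values of a library were whole multiples of a single step, and summed to 5141959 to 8193031 steps per library. The lowest value of a library was 5 or 6 steps, so it was not settled that a step is a single read. The RPF values fell on no such step, so their depth in reads is unknown. Median RPF values were 28.1 to 28.4 for parental and MDA-LM2 libraries and 9.40 to 9.50 in the knockdown table. VIM, CD44, AXL, EGFR and MSN, which mark mesenchymal-like MDA-MB-231 cells, had RNA at or above the 97.5 percentile of all listed transcripts in both tables. ESR1, PGR, CDH1 and the 8 leukocyte, endothelial and adipocyte markers examined were not listed in either table. ERBB2 and EPCAM were listed in both, ERBB2 with RNA of 708 to 812 in parental and MDA-LM2 cells and 127 to 180.2 in the knockdown table, and EPCAM with 31.9 to 46.5 and 50.7 to 86.9. Both had been taken as markers that would be low or not listed. EPCAM was at the 6.92 and 13.3 percentiles of listed transcripts in the same order, but ERBB2 was at the 80.9 and 36.8 percentiles. HNRNPC RNA was 2162 and 2146 in sgControl and 1147 and 1183 in sgHNRNPC, which matches the labels. A transcript with no match in GENCODE held 18.1% to 21.1% of the RNA values in the knockdown table, and PLCG2 held 3.47% to 5.83% in the other. All libraries are bulk cultures, so a difference in some cells cannot be told apart from one in all of them.

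In RNA, the SR genes ranged from among the most abundant mRNAs to below the median of the tested genes. Levels are compared between genes per kilobase of mRNA. Each rank of a level, here and for footprints and translation below, is a percentile among the tested genes of the table. These were 8393 genes for MDA-LM2 and parental cells and 4283 in the knockdown table, so ranks in the 2 tables rest on different sets. In parental cells SRSF2 had 1384 and 1299 normalised RNA counts per kilobase in replicates 1 and 2 and SRSF9 had 1361 and 1299, both at the 94.7 percentile. SRSF10 was lowest, with 63.4 and 64.3 per kilobase, at the 34.4 percentile. The span between SRSF2 and SRSF10 was 21.0-fold. The order from high to low in parental cells was SRSF2, SRSF9, SRSF7, SRSF1, SRSF6, SRSF3, SRSF5, SRSF4, SRSF11 and SRSF10, and MDA-LM2 cells had the identical order. SRSF2 and SRSF9 overlapped between replicates in both lines, and SRSF7 and SRSF1 overlapped in MDA-LM2 as well. In the knockdown table the order was SRSF9, SRSF3, SRSF1, SRSF6, SRSF4, SRSF2, SRSF7, SRSF5, SRSF11 and SRSF10, again identical in both lines. There, SRSF7 and SRSF5 overlapped in both lines, and in sgHNRNPC SRSF1 overlapped SRSF6 and SRSF2 overlapped SRSF7. SRSF10 was at the 13.9 percentile in sgControl, with 57.6 and 55.1 per kilobase. Summed over the 10 genes, SR mRNAs held 0.152% to 0.180% of all RNA values of a library.

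**Figure D1:**
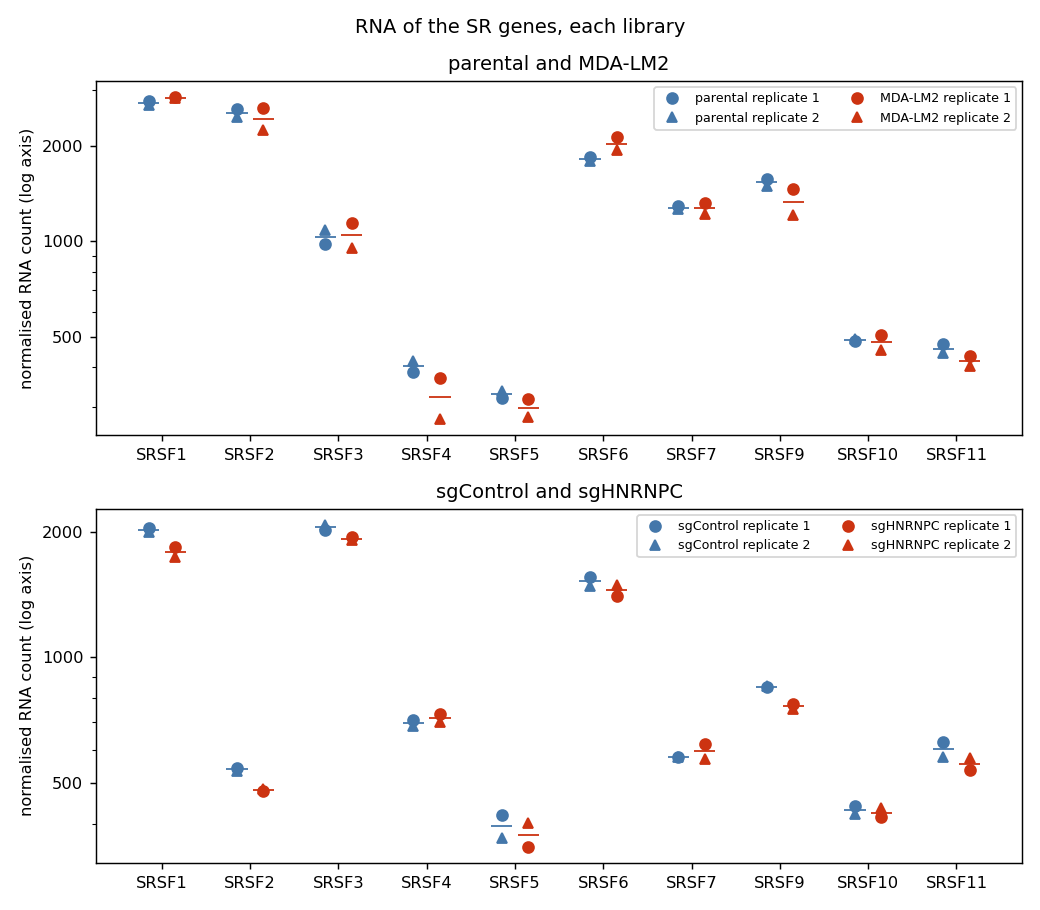
Normalised RNA counts of the 10 SR genes (log axis), parental and MDA-LM2 cells above and sgControl and sgHNRNPC cells below, with a circle for replicate 1, a triangle for replicate 2 and a short line for the mean. The lines of a pair lie close together for every gene, while SRSF2 and SRSF3 change places between the tables, which were normalised separately.

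Ribosome footprints were high for most of the family. Per kilobase of coding sequence, all 10 genes lay at or above the 71.4 percentile in parental cells and the 70.6 percentile in MDA-LM2 cells. SRSF3, the smallest member and an export adaptor, had the highest footprint density of the family in every line. Its RPF value per kilobase was 535 and 539 in parental, 446 and 433 in MDA-LM2, 103 and 110.0 in sgControl and 116 and 133 in sgHNRNPC cells, between the 95.4 and 98.1 percentiles. No other member overlapped it in any line. SRSF4 and SRSF11, which also have the longest coding sequences of the family (1482 and 1452 bases), had the lowest mean densities in all 4 lines. Their replicates overlapped each other in parental, MDA-LM2 and sgHNRNPC cells but not in sgControl cells. In sgHNRNPC cells SRSF4 also overlapped SRSF5, at 8.17 and 25.8 against 19.4 and 32.1 per kilobase. In sgControl cells SRSF11 was at the 37.9 percentile, with 13.7 and 10.4 per kilobase.

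**Figure D2:**
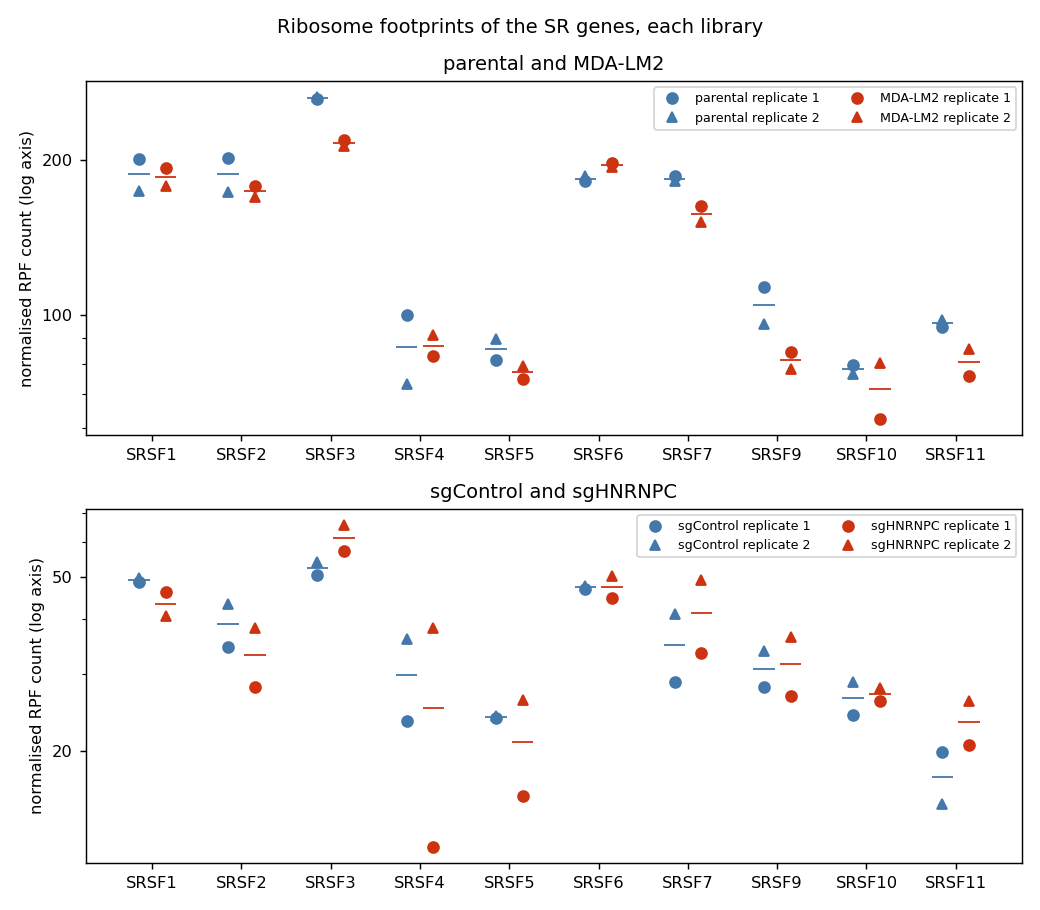
Normalised footprint counts (RPF) of the 10 SR genes (log axis), drawn as in the RNA plot. Both MDA-LM2 replicates of SRSF3, SRSF5, SRSF7, SRSF9 and SRSF11 lie below both parental replicates, and the replicates of the knockdown table lie further apart, most of all those of SRSF4 in sgHNRNPC cells (12.1 and 38.2).

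Translational efficiency (TE) is the RPF value over the RNA value. To compare genes, it was taken per length (RPF per kilobase of coding sequence over RNA per kilobase of mRNA, replicate 1 over replicate 1 and 2 over 2) and expressed as a log2 level relative to the median tested gene. SRSF3 had the highest level in parental cells, 3.18 and 3.04, at the 98.9 percentile, and in MDA-LM2 cells, 2.67 and 2.86, at the 98.2 percentile. SRSF10 was next, with 2.65 and 2.57 in parental and 2.22 and 2.70 in MDA-LM2 cells. In MDA-LM2 cells these 2 genes overlapped, and no other member overlapped them. SRSF10 was highest in the knockdown table, with 2.37 and 2.64 in sgControl and 2.53 and 2.51 in sgHNRNPC cells, while SRSF3 was at 1.05 and 1.08 and at 1.25 and 1.43. SRSF9 was lowest in parental, MDA-LM2 and sgControl cells, with means of -1.11, -1.30 and -0.74, and SRSF4 was lowest in sgHNRNPC cells with a mean of -1.21, from replicates of -2.05 and -0.37. SRSF9 and SRSF4 overlapped in both lines of the knockdown table. Between these ends the levels crowded together. In MDA-LM2 cells every neighbouring pair from SRSF5 through SRSF11, SRSF1, SRSF4 and SRSF7 to SRSF6 overlapped. These levels rest on the length of the listed mRNA. SRSF10 is represented by an mRNA of 7656 bases with a long 3′ UTR, and a shorter mRNA in these cells would raise its RNA level per kilobase and lower its TE level. Mapping of reads to isoforms was not tested.

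**Figure D3:**
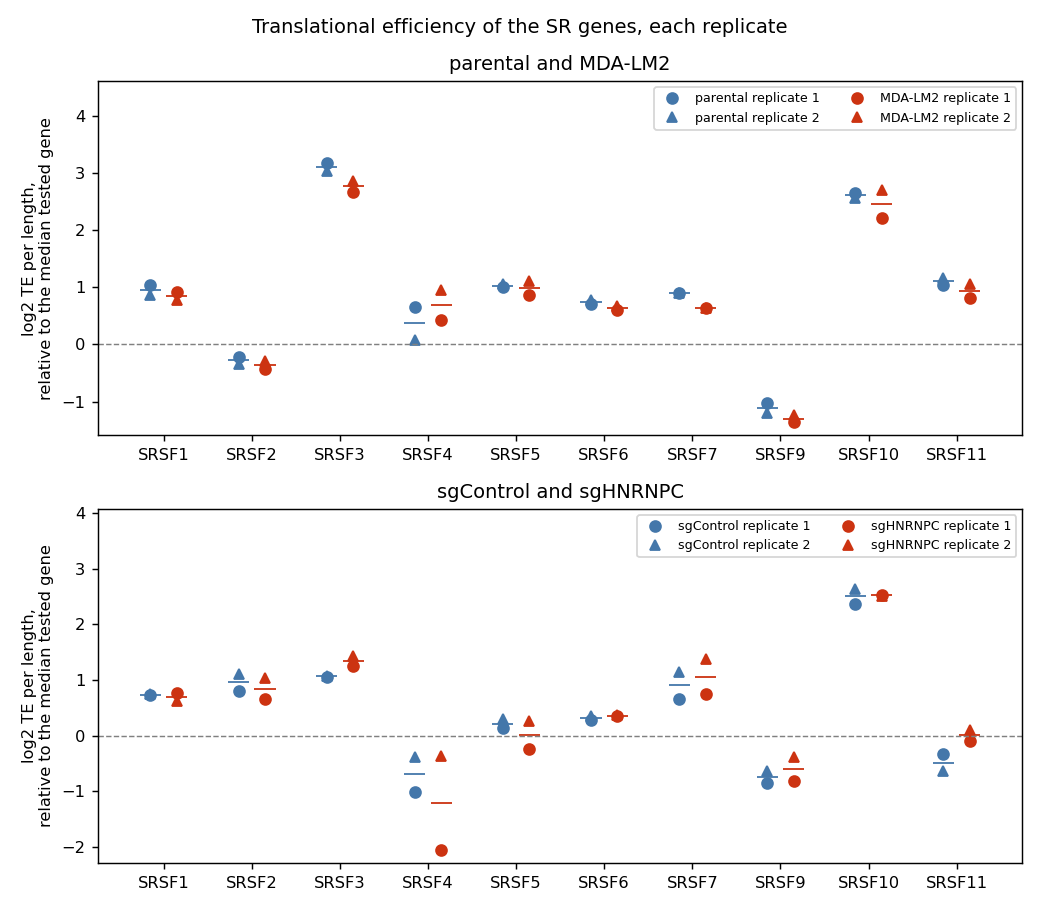
Log2 TE level per length of the 10 SR genes relative to the median tested gene (dashed line at 0), replicate by replicate, drawn as in the RNA plot. SRSF3 and SRSF10 stand highest in the parental and MDA-LM2 panel at 2.22 to 3.18, and SRSF9 lies below 0 in all 4 lines.

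MDA-LM2 and parental cells were compared to ask whether the family changes with metastatic capacity. In RNA, the SR genes lay near their parental level. The log2 RNA changes ran from -0.34 for SRSF4 to 0.16 for SRSF6 with a median of -0.04, beside a median of -0.02 over all 8393 tested genes. None of the 10 passed limma at an adjusted p under 0.05, and 0 passed at an unadjusted p under 0.05, where 31.8% of all tested genes did. Of all tested genes 15.2% were called in this comparison, 5.80% higher and 9.44% lower. The members' standard errors had a median of 0.12, and the 95% intervals of the 10 changes together spanned -0.72 to 0.42.

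Among the members with a single recognition motif, SRSF2 RNA was 2614 and 2453 in parental and 2634 and 2235 in MDA-LM2 cells, SRSF3 RNA was 980.1 and 1084 against 1143 and 951, and SRSF7 RNA was 1286 and 1260.1 against 1322 and 1217. In each of these 3 genes the lines overlapped. Among those with paired motifs, SRSF1 RNA was 2770 and 2680.1 in parental and 2843 and 2824 in MDA-LM2 cells, at 104% of parental with a 95% interval of 87.3% to 124%. SRSF6, also known as SRp55, had 1840 and 1789 in parental and 2128 and 1931 in MDA-LM2 cells. Its log2 RNA change was 0.16 ± 0.11 (SE, n = 2 per line; adjusted p = 0.362 by limma), with both MDA-LM2 replicates above both parental ones.

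SRSF4 showed the largest RNA difference among the members, with 388 and 419.7 in parental and 370.2 and 275 in MDA-LM2 cells. Its log2 RNA change was -0.34 ± 0.16 (SE, n = 2 per line; adjusted p = 0.197 by limma). The size of this difference depended on the MDA-LM2 replicate. Without MDA-LM2 replicate 1, SRSF4 (-0.55) and SRSF9 (-0.34) passed the test, and without MDA-LM2 replicate 2, SRSF6 passed it (0.23). SRSF9 RNA was 1568 and 1497 in parental and 1455 and 1210.3 in MDA-LM2 cells. Both replicates of MDA-LM2 were above both parental replicates for 2 members and below them for 4, where 28.5% and 33.6% of all tested genes were so ordered. MDA-LM2 replicate 2 also differed from the other RNA libraries in base composition. Its deviation from the mean of the 4 RNA libraries had a Pearson r of -0.40 with the GC content of the mRNA across 8215 genes, which are not independent, against 0.31 and 0.19 in the parental libraries and -0.01 in MDA-LM2 replicate 1. With this trend taken out of every library, an alternative chosen after the data had been seen, the members called in RNA remained 0, and the RNA changes of SRSF4 and SRSF6 were -0.28 and 0.06.

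Footprints of the family were mostly lower in MDA-LM2 cells, by amounts that did not pass the test as designed. The log2 RPF change was below 0 in 8 of 10 members with a median of -0.14, beside a median of -0.01 and 51.1% of genes below 0 over all tested. Among these 8, SRSF1, SRSF2 and SRSF10 turned above 0 when a single replicate was left out. The members called at an adjusted p under 0.05 were 0, where 12.0% of all tested genes were called, 5.00% higher and 7.03% lower. At an unadjusted p under 0.05, 2 members passed (SRSF3 and SRSF9), where 24.6% of all genes did. In 5 members both MDA-LM2 replicates were below both parental replicates and in 1 above, where 27.6% and 25.7% of all genes were so ordered.

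SRSF3 had the lowest adjusted p among them. Its RPF value was 263 and 265 in parental and 219 and 213 in MDA-LM2 cells, with no overlap. The log2 RPF change was -0.29 ± 0.11 (SE, n = 2 per line; adjusted p = 0.0779 by limma), which puts the MDA-LM2 level at 81.9% of parental with a 95% interval of 70.3% to 95.4%. The RPF libraries also differed in their relation to GC content, with r of 0.17 and 0.04 in parental and -0.03 and -0.20 in MDA-LM2 cells. Removal of the GC trend gave SRSF3 an RPF change of -0.35 (adjusted p = 0.0193 by limma), which passed. With the replicate number as a block SRSF3 passed as well (-0.29, adjusted p = 0.0293 by limma). SRSF9, the member with the fewest RS pairs, had RPF values of 113 and 95.8 in parental and 84.6 and 78.5 in MDA-LM2 cells, a log2 RPF change of -0.35 ± 0.15 (SE, n = 2 per line; adjusted p = 0.134 by limma). SRSF7, also an export adaptor, had RPF values of 186 and 182 against 162 and 151, a log2 RPF change of -0.23 ± 0.12 (SE, n = 2 per line; adjusted p = 0.235 by limma). SRSF11 had RPF values of 94.7 and 97.5 against 76.0 and 85.5, and SRSF5 had 81.6 and 89.5 against 75.0 and 79.3. SRSF6 was the member with both MDA-LM2 values above the parental ones, at 182 and 186 against 198 and 194. SRSF1 footprints overlapped, with 201 and 174 in parental and 193 and 178 in MDA-LM2 cells, 99.1% of parental with a 95% interval of 83.7% to 117%.

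The TE of the SR genes was not shown to differ between MDA-LM2 and parental cells. The log2 TE change was below 0 in 9 of 10 members, between -0.30 for SRSF3 and -0.0031 for SRSF5, and 0.36 in SRSF4. The median was -0.09, beside 0.03 over all tested genes, of which 45.5% were below 0. No member was called by limma, and 0 passed at an unadjusted p under 0.05, where 5.42% of all tested genes did. At an adjusted p under 0.05, 0.0357% of all tested genes were called by limma and 2.16% by logistic regression, which also called no member. The study marked genes at a P under 0.01 by logistic regression, a threshold not applied to that test here. Logistic regression, the kind of test used in the study, was run here on normalised values summed over the replicates of a line. It treats these values as counts of reads and does not take replicates as its units. SRSF3 had a log2 TE change of -0.30 ± 0.17 (SE, n = 2 per line; adjusted p = 0.907 by limma), with both MDA-LM2 replicates below both parental ones; its adjusted p by logistic regression was 0.0897. SRSF7 was ordered in the same way, with a log2 TE change of -0.22, and 15.8% of all tested genes shared this order. The other 8 members overlapped. The widest interval was that of SRSF4, from -0.20 to 0.92 on the log2 scale. All 7 SR genes with a C and 6 U in the 3′ UTR had a log2 TE change below 0, as did 2 of the 3 without. These signs were not stable, since SRSF1, SRSF2, SRSF5, SRSF10 and SRSF11, which hold the run, turned above 0 when a single replicate was left out. Over all tested genes 52.1% of those with the run and 40.0% of those without were below 0, and this was not tested.

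**Figure D4:**
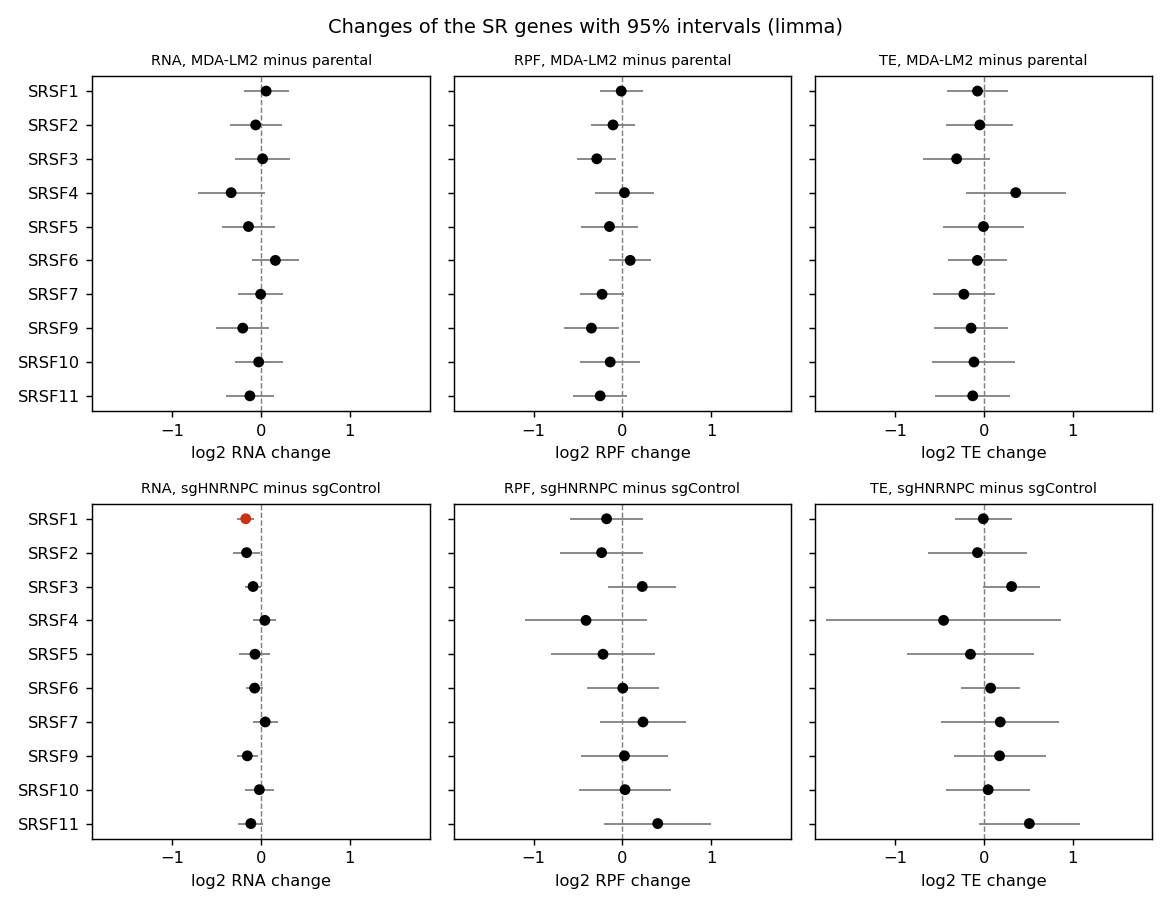
Log2 changes in RNA, RPF and TE of the 10 SR genes with 95% intervals from limma, MDA-LM2 minus parental above and sgHNRNPC minus sgControl below; red marks an adjusted p under 0.05. SRSF1 RNA in the knockdown is the single red point, at -0.17, and the interval of SRSF4 is the broadest of the members in RPF and in TE of the knockdown.

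The comparison of sgHNRNPC with sgControl cells asks what a lower level of HNRNPC does to the family. SRSF1 RNA fell, and no other member passed the test at any level of measurement. SRSF1 is a general splicing activator that binds purine-rich exonic enhancers and acts as a proto-oncogene in breast epithelium. Its RNA was 2036 and 1995 in sgControl and 1839 and 1736 in sgHNRNPC cells, with both knockdown replicates below both controls. The log2 RNA change was -0.17 ± 0.05 (SE, n = 2 per line; adjusted p = 0.00474 by limma), and the sgHNRNPC level was 88.7% of sgControl with a 95% interval of 83.1% to 94.6%.

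This call was 1 of 10 members, where 11.3% of the 4283 tested genes were called lower in RNA and 4.72% higher, so the share among SR genes was near the background. At an unadjusted p under 0.05, 3 members passed (SRSF1, SRSF2 and SRSF9), where 27.8% of all genes did. The change was at the 17.4 percentile of all tested RNA changes. It was lost without sgControl replicate 1 (adjusted p = 0.0590 by limma) and without sgHNRNPC replicate 2 (adjusted p = 0.160 by limma). It was also lost after quantile normalisation (-0.13, adjusted p = 0.0601 by limma), while removal of the GC trend left it called (-0.15, adjusted p = 0.0226 by limma). SRSF1 also shares sequence with an overlapping gene model, ENSG00000266086, which holds 95.9% of its 33-base coding words and 29.3% of its 50-base mRNA words. That model is not among the listed transcripts, and a listed SRSF1 count may include its reads.

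The other members lay at 89.2% to 103% of sgControl in RNA. The log2 RNA changes of the 10 genes ran from -0.17 to 0.05 with a median of -0.08, beside -0.04 over all tested genes, and 8 of 10 were below 0, against 59.5% of all genes. In 5 members both replicates of the knockdown were below both of the control and in 0 above, where 34.6% and 20.2% of all tested genes were so ordered. SRSF2, which controls its own mRNA through decay, had RNA of 545 and 536 in sgControl and 479 and 485 in sgHNRNPC cells. Its log2 RNA change was -0.16 ± 0.07 (SE, n = 2 per line; adjusted p = 0.126 by limma). SRSF9 RNA was 849 and 854 against 776 and 753, a log2 RNA change of -0.16 ± 0.06 (SE, n = 2 per line; adjusted p = 0.0680 by limma). SRSF3 RNA was 2021 and 2076 against 1942 and 1905, and SRSF11 RNA was 628 and 578 against 539 and 574. SRSF4, SRSF5, SRSF6, SRSF7 and SRSF10 overlapped between the lines, with log2 RNA changes of -0.07 to 0.05. The members' RNA intervals spanned -0.31 to 0.19 together, from 80.5% to 114% of sgControl.

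No SR gene was called in the footprints of the knockdown. The log2 RPF changes ran from -0.41 for SRSF4 to 0.40 for SRSF11 with a median of 0.01, beside 0.02 over all genes. By limma 0.0233% of all tested genes were called, higher in sgHNRNPC, and 0% lower. At an unadjusted p under 0.05, 0 members passed, where 7.68% of all genes did. SRSF1 footprints were 48.5 and 49.8 in sgControl and 46.1 and 40.7 in sgHNRNPC cells. They lay lower in both knockdown replicates, at 88.4% of sgControl with a 95% interval of 66.5% to 117%, which includes the RNA change. In SRSF3 the replicates were ordered the other way, at 50.6 and 54.1 against 57.1 and 65.6, with a log2 RPF change of 0.22 ± 0.19 (SE, n = 2 per line; adjusted p = 0.805 by limma). SRSF11 had 19.9 and 15.1 against 20.6 and 26.0. SRSF4 had 23.5 and 36.1 against 12.1 and 38.2, and its RPF change was -1.20 without sgHNRNPC replicate 2, which passed the test, and 0.38 without sgHNRNPC replicate 1. In 2 members both knockdown replicates were higher and in 1 lower, where 20.8% and 17.1% of all genes were so ordered.

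TE in the knockdown was not shown to differ in any member. The log2 TE changes had a median of 0.06, equal at this precision to the 0.06 over all genes, and ran from -0.45 for SRSF4 to 0.51 for SRSF11. No gene of the 4283 was called by limma (7.75% at an unadjusted p under 0.05, of which 0 were members). Logistic regression at an adjusted p under 0.05 called 0.257% of genes and no member. SRSF11 had a log2 TE change of 0.51 ± 0.25 (SE, n = 2 per line; adjusted p = 0.640 by limma) and SRSF3 of 0.31 ± 0.14 (SE, n = 2 per line; adjusted p = 0.631 by limma). These 2 were the members with both knockdown replicates above both controls, an order that 22.6% of all tested genes shared. SRSF1 had a log2 TE change of -0.0049 ± 0.14 (SE, n = 2 per line; adjusted p = 0.995 by limma), with an interval of 79.8% to 124% of sgControl. Its SE in RPF alone was larger, at 0.20. The TE fit takes a single variance per gene over RNA and RPF libraries. Over all tested genes the median SE was 0.27 in TE and 0.29 in RPF, so TE intervals of the knockdown may be too narrow. For SRSF4 the interval ran from 29.2% to 183% of sgControl. Of the 7 SR genes with a C and 6 U in the 3′ UTR, 3 had a log2 TE change below 0, as did 1 of the 3 without, where 47.0% and 38.8% of all tested genes with and without the run were below 0.

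Partners of the SR proteins were counted from 5 lists. Among kinases, phosphatases and the import receptor that act on the RS domain (12 genes, 11 tested), MDA-LM2 cells had 1 call in RNA and 1 in RPF, where 15.2% and 12.0% of all tested genes were called. The calls in the other lists below are to be read against the same shares. SRPK2, a kinase that phosphorylates SR proteins in the cytoplasm, fell in RNA from 293 and 279 to 209 and 196, a log2 change of -0.50 ± 0.12 (SE, n = 2 per line; adjusted p = 0.0355 by limma). PPP1CC, a catalytic subunit of protein phosphatase 1, fell in RPF from 112 and 137 to 93.4 and 89.8. The other SRPK kinase, SRPK1, had RNA of 1311 and 1310.1 in parental and 1377 and 1264 in MDA-LM2 cells.

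Among SR-related and SR-like proteins (18 of 19 tested), PNN rose in MDA-LM2 cells and SCAF1 fell in RNA. PNN, a nuclear speckle protein, had RNA of 338 and 333 in parental and 486 and 589 in MDA-LM2 cells (log2 change 0.67 ± 0.13 SE, adjusted p = 0.0176 by limma, n = 2 per line). Its RPF value rose too, from 84.0 and 98.9 to 143 and 121. SCAF1, which binds the tail of RNA polymerase II, went from 1512 and 1364 to 1122 and 1006 in RNA. Among 15 splice-site recognition partners, LUC7L2, a U1-associated protein, fell in RNA from 652 and 627 to 472 and 385, and U2AF1, the subunit that reads the 3′ splice site, rose in RPF from 36.2 and 44.4 to 69.7 and 55.7. Among 13 genes of nonsense-mediated decay and the exon junction complex, CASC3 rose in RNA from 452 and 477 to 683 and 610.0, and RBM8A rose in RPF from 90.1 and 105 to 133 and 129. Among 12 export adaptors, THOC2 fell in RPF from 156 and 180.5 to 112 and 137. In TE no gene of the 5 lists was called in MDA-LM2 cells. The medians of the lists in RNA lay between 0.02 and 0.21, and in RPF between -0.06 and 0.08.

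In the knockdown, PPP1CB, PTBP1 and SF1 fell in RNA, where 11.3% of all tested genes were called lower, and no other gene of the lists was called in RNA, RPF or TE. SF1 recognises the branch point, and its RNA was 1157 and 1166 in sgControl and 930.1 and 1023 in sgHNRNPC cells, a log2 change of -0.25 ± 0.06 (SE, n = 2 per line; adjusted p = 0.000454 by limma). PTBP1, a repressor that binds pyrimidine tracts, went from 1282 and 1246 to 1114 and 1123, and PPP1CB went from 1725 and 1689 to 1556 and 1557. The tested numbers were 6 of 12 kinases, phosphatases and the import receptor, 17 of 19 SR-related genes, all 15 splice-site partners, 10 of 14 decay genes and 10 of 12 export adaptors. SRSF8, a close relative of SRSF2, had RPF values of 7.08 and 8.43 in sgControl and 23.5 and 14.2 in sgHNRNPC cells (adjusted p = 0.472 by limma, n = 2 per line). Its sgControl mean of 7.75 was below the minimum of 10, and SRSF8 passed the filter only through its sgHNRNPC mean of 18.8. SCAF11 RNA, the next lowest p among SR-related genes, was 921 and 871 against 792 and 808. Of the decay genes, CASC3 had a log2 TE change of -0.71 with an adjusted p of 0.570 by limma. Of the export adaptors, THOC7 had RPF values of 13.4 and 10.4 against 23.3 and 26.7, and THOC2 a log2 TE change of -0.50 with an adjusted p of 0.584 by limma.

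The mean pattern of the SR genes over the 16 libraries was shallow. Each value was taken as log2 of the value plus 1 and centred within its kind of library and table. The mean over the members then had a root mean square of 0.10, with its lowest point, -0.22, in RPF of sgHNRNPC replicate 1 and its highest, 0.21, in RPF of sgHNRNPC replicate 2. The genes closest to that pattern among 4280 were RPL3, a ribosomal protein (root mean square difference 0.0566), SEC61A1, a subunit of the translocon (0.0568), and ENST00000331789 (0.0586), whose symbol was not found. The median gene differed by 0.204. SRSF2 was the member closest to the mean pattern (0.0733), and SRSF4 the furthest (0.266).

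SRSF2 and SRSF3 changed places between the tables, in RNA and not in footprints. The ratio of SRSF3 to SRSF2 RNA within a library was 0.375 and 0.442 in parental and 0.434 and 0.425 in MDA-LM2 cells, but 3.71 and 3.87 in sgControl and 4.06 and 3.92 in sgHNRNPC cells. The RPF ratio was 1.30 and 1.53, 1.23 and 1.26, 1.46 and 1.25, and 2.04 and 1.72 in the same order of lines. A ratio within a library does not depend on the size factor. The log2 level in sgControl minus that in parental cells, with the median gene set to 0, was -1.74 for SRSF2 RNA, 1.48 for SRSF3 RNA and 1.27 for SRSF4 RNA, while the RPF differences of the 10 members lay between -0.46 and 0.42. Across 4189 genes tested in both tables the RNA difference had a Pearson r of -0.83 and a Spearman rho of -0.84 with the GC content of the mRNA, and the RPF difference had -0.08 and -0.10. The genes share libraries and are not independent. Among the 838 genes of lowest GC content (30.7% to 40.9%) the median RNA difference was 1.43, and among the 838 of highest (57.6% to 74.4%) it was -1.70. The median RPF differences of the same genes were 0.05 and -0.05. The members followed this trend in part. SRSF3 (39.4% GC) lay near the median of the lowest bin, while the other 5 members in that bin had RNA differences from -0.65 for SRSF7 to 0.89 for SRSF11, all below it. SRSF2 (49.6% GC) lay far below the median of its own bin, which was 0.0026, and SRSF4 (51.4% GC) far above that of its bin, which was -0.84. TE has RNA in its denominator, and the mean TE level of SRSF3 was 3.11 in parental and 1.06 in sgControl cells. Line, repressor and library preparation cannot be told apart between the tables, and no test was made across them.

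**Figure D5:**
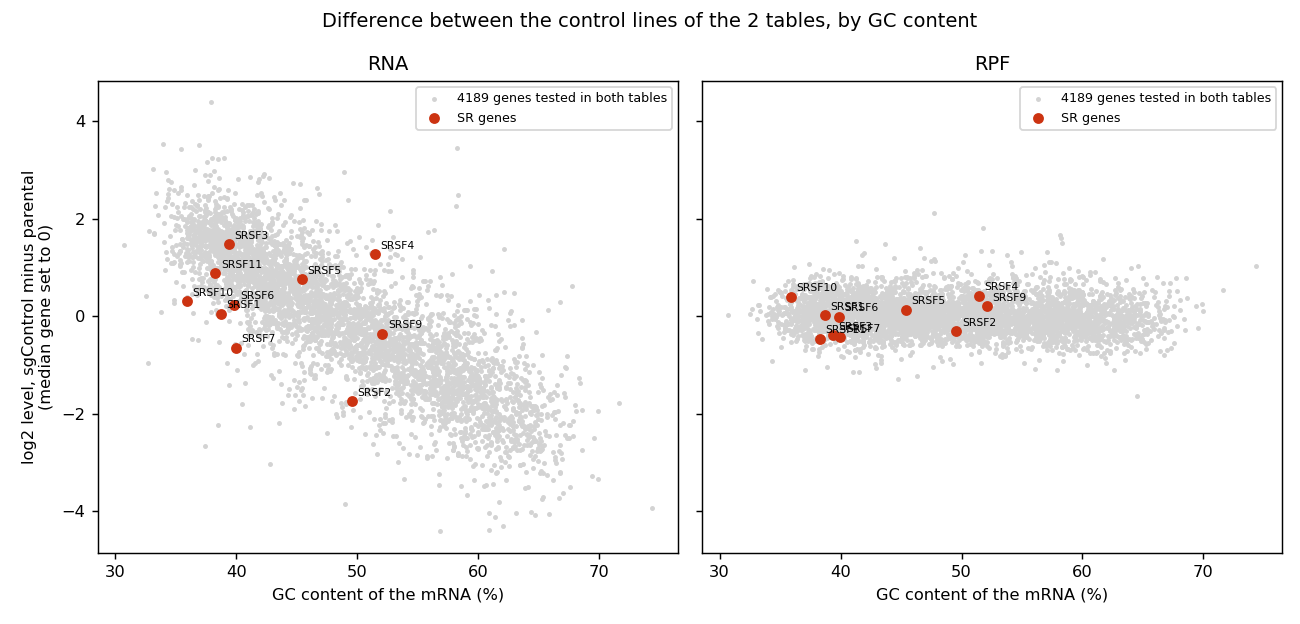
Difference in log2 level between sgControl and parental cells (median gene at 0) against the GC content of the mRNA, for RNA at left and RPF at right, with 4189 genes tested in both tables in grey and the SR genes in red. The RNA cloud falls from low to high GC (Pearson r -0.83) with SRSF3 at 1.48 and SRSF2 at -1.74, and the RPF cloud is nearly flat (r -0.08).

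The members shared little sequence with each other. No coding word of 33 bases was shared between any members, and SRSF2 shared 2 with the listed SRSF8. Of 50-base words, 0.460% of the SRSF10 mRNA occurred in another listed transcript, and none did for the other 9. Over the whole annotation, 79.5% of the SRSF6 coding words, 29.2% of those of SRSF3, 25.2% of those of SRSF10 and 8.83% of those of SRSF9 also occur in other gene models. Pseudogenes are among these models, so the values of these genes may include reads of such copies where these are expressed. Of the 50-base mRNA words, 0.861% were shared in this way for SRSF3 and 1.14% for SRSF10. Whether this bears on the high TE levels of SRSF3 and SRSF10 was not tested.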

How the data were processed

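RNA and ribosome footprints were measured in 4 lines with 2 replicates each, grouped by sample titles. The authors deposited a normalised signal for every transcript. They aligned reads with Bowtie2 (2.3.5 per the labels) to the isoform with the longest coding sequence of each gene (hg38), after adaptor trimming (cutadapt 2.3), collapse of UMIs for footprints and removal of rRNA and tRNA reads, and scaled counts by median-of-ratios factors, separately for RNA and RPF and for each table. The methods offer a correction for stalled ribosomes, not stated for these files. PCR duplicates of RNA were not marked by UMIs.

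Symbols and sequences came from GENCODE version 44, with 97.9% of transcripts matched. Genes whose RNA mean and RPF mean in a table reached 10 were tested (8393 and 4283) on log2 of the value plus 1 with limma 3.58.1 in R 4.3.3 (trended moderation, Benjamini-Hochberg over all tested genes, adjusted p under 0.05, two-sided), and fold changes understate those of low genes. TE was the interaction contrast, with a single variance per gene over RNA and RPF libraries. Code was tested on simulated data. The members and the lists were chosen with earlier results of these data known. The genes named from each list are those called, or else the 2 with the smallest p; SRPK1 was named after its values were seen. A gene that this rule names is not reported here. Alternatives were other added values (0.5, 5), no filter or a minimum of 50, equal totals, quantile normalisation, a replicate block, robust moderation, an unadjusted p under 0.01, leaving out each replicate, logistic regression, TE within each lysate and GC trends removed. Same-numbered replicates deviated together with correlations of -0.01 to 0.23.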

Additional observations from a re-analysis of the deposited data

How the results depend on the processing

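SRSF1 RNA in the knockdown was not called after quantile normalisation (0 members, log2 RNA change -0.13, adjusted p = 0.0601 by limma), and at a minimum mean of 50 (0 members) it was not tested; with equal totals 2 members were called, SRSF1 and SRSF9. Leaving out each replicate gave 0 to 1 members in RNA and 0 to 1 in RPF for the knockdown, and 0 to 2 in RNA for MDA-LM2. In MDA-LM2, equal totals called 1 member in RNA (SRSF6), and removal of GC trends called 1 in RPF (SRSF3). Same-numbered replicates of different lines share only a number; with the replicate block 1 member was called in RPF of MDA-LM2 (SRSF3, -0.29, adjusted p = 0.0293 by limma), and the block changed no other member call. TE calls of members were 0 under every alternative run, among which the P under 0.01 of the study was not applied to logistic regression. Count tests (edgeR and DESeq2) were not run, since the lowest RNA value of a library was 5 or 6 steps and whole reads were not taken as recovered.

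With equal totals the MDA-LM2 medians over all genes shifted by 0.17 in RNA and -0.12 in TE, so member changes there are read relative to that shift. The share of called genes that were higher went from 38.1% to 66.6% in RNA and from 41.6% to 54.3% in RPF of MDA-LM2 with equal totals, and in knockdown RNA from 29.5% to 43.2% with quantile normalisation and 46.5% with GC trends removed. Changes near 0 turned sign. With equal totals this follows from the common shift of all genes, and for the other alternatives the cause was not tested. In MDA-LM2 RNA these were, with equal totals, SRSF2 (0.11), SRSF5 (0.027), SRSF7 (0.16), SRSF10 (0.14) and SRSF11 (0.043); with quantile normalisation, SRSF2 (0.12), SRSF7 (0.13) and SRSF10 (0.022); and with GC trends removed, SRSF1 (-0.048) and SRSF3 (-0.086). SRSF1 RPF in MDA-LM2 was 0.042 with equal totals and 0.053 with quantile normalisation, and SRSF5 TE was 0.0018 with an added value of 5 and 0.0018 with GC trends removed. In the knockdown, SRSF10 RNA was 0.0072 with quantile normalisation and 0.0036 with GC trends removed, SRSF6 RPF was -0.022 and -0.018 and SRSF9 RPF -0.0037 and -0.012 with equal totals and quantile normalisation, SRSF1 TE was 0.0089 with an added value of 5, and SRSF10 TE was -0.0042 with quantile normalisation.

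Leaving out each replicate turned the sign of these changes, given by their lowest and highest values. In MDA-LM2 RNA they were SRSF2 (-0.18 to 0.057), SRSF3 (-0.12 to 0.15), SRSF7 (-0.065 to 0.055) and SRSF10 (-0.10 to 0.048). In MDA-LM2 RPF they were SRSF1 (-0.12 to 0.091), SRSF2 (-0.22 to 0.0040), SRSF4 (-0.20 to 0.24) and SRSF10 (-0.32 to 0.041). In MDA-LM2 TE they were SRSF1 (-0.15 to 0.011), SRSF2 (-0.13 to 0.040), SRSF5 (-0.14 to 0.13), SRSF10 (-0.37 to 0.15) and SRSF11 (-0.26 to 0.011). In knockdown RNA they were SRSF5 (-0.16 to 0.025), SRSF7 (-0.013 to 0.10) and SRSF10 (-0.058 to 0.018). In knockdown RPF they were SRSF4 (-1.20 to 0.38), SRSF5 (-0.57 to 0.13), SRSF6 (-0.075 to 0.083), SRSF7 (-0.038 to 0.50), SRSF9 (-0.19 to 0.24) and SRSF10 (-0.088 to 0.15). In knockdown TE they were SRSF1 (-0.050 to 0.041), SRSF2 (-0.28 to 0.14), SRSF4 (-1.28 to 0.37), SRSF5 (-0.40 to 0.10), SRSF7 (-0.14 to 0.51), SRSF9 (-0.058 to 0.41) and SRSF10 (-0.10 to 0.20). A line left with 1 replicate is assumed to vary like the others. With 2 replicates per line and low RPF values in the knockdown, a TE change smaller than the intervals printed was not detectable there. A larger change could also go uncalled. THOC7, with a log2 TE change of 1.11 ± 0.24 (SE, n = 2 per line; adjusted p = 0.570 by limma), was not called, nor was any other of the 4283 genes. The TE intervals printed may themselves be too narrow, since RNA and RPF libraries shared a variance.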
